A study of Caenorhabditis elegans with 45 samples.

Results

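A set of 10 genes of meiotic chromosome structure and meiotic entry was followed through 3 time courses of Caenorhabditis elegans development: syp-1, syp-2, syp-3, him-3, htp-1, htp-2, htp-3, rec-8, spo-11 and gld-1. They were chosen by name, as the rows of the count table whose WormBase identifier carries one of these symbols, and all 10 were found among 20182 gene rows. Polyadenylated RNA from whole worms was sequenced in 45 libraries. The continuous course held 16 libraries of N2, the standard laboratory strain, plated with food as newly hatched first-stage larvae, grown without interruption and sampled hourly at hours 21 to 36 by sample name. The labels give the time in development of these samples as 22 to 37 h and put the difference down to slow growth. The sample-name hours are used here. The dauer exit course held 22 libraries of N2 dauer larvae, a stress-resistant diapause stage, at hours 1 to 22 after food was given. The third course held 7 libraries of glp-4(bn2) in continuous development at hours 40 to 52, every 2 h. This temperature-sensitive allele is not a deletion, and at the restrictive temperature such worms have few germ cells. The growth temperature was not given in the sources used here. All worms were fed OP50 bacteria on agar plates, and the ages of the glp-4 samples match no N2 sample.

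In meiosis, each chromosome is organised as loops along a protein axis, and paired homologues are then held together along their length by the synaptonemal complex, a protein lattice that sits between the axes. Cohesin rings build the axis, HORMA-domain proteins coat it, and SYP proteins fill the space between homologues. Recombination begins with programmed double strand breaks, made by SPO-11, and crossovers later link the homologues. In the worm, germ cells divide by mitosis at the distal end of the gonad and enter meiosis as they move away from it. The gonad grows through the larval stages, so a whole-worm measurement takes in a changing number of germ cells at changing stages.

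By the WBcel235 annotation, 5 of the genes lie on chromosome IV, 3 on chromosome I and 2 on chromosome V, with none on the X chromosome. The synaptonemal complex genes are syp-1 (WBGene00006375; V, 16404274 to 16407701, plus strand), syp-2 (WBGene00006376; V, 5536487 to 5537717, plus strand) and syp-3 (WBGene00006377; I, 8663045 to 8664445, minus strand). The HORMA-domain genes are htp-3 (WBGene00002034; I, 4827072 to 4829791, plus strand), him-3 (WBGene00001862; IV, 6977508 to 6978765, plus strand), htp-1 (WBGene00002032; IV, 5390189 to 5391557, minus strand) and htp-2 (WBGene00002033; IV, 6419522 to 6420898, plus strand). The other genes are rec-8 (WBGene00004333; IV, 13349122 to 13353193, minus strand), spo-11 (WBGene00004985; IV, 11123133 to 11124862, minus strand) and gld-1 (WBGene00001595; I, 7695681 to 7698222, plus strand). The values below are sums over each gene's reads, and the build behind them was not given in the sources used here. The near-identical paralogs htp-1 and htp-2 could exchange reads, so the division of counts between them is uncertain. F13A7.14 shares 1075 bases with syp-1 on the same strand, and had 9.77 CPM (the count scaled by its library's total) early and 21.8 CPM late in continuous N2. The other overlaps are short and on the opposite strand: 61 bases of syp-3 with mrt-1, 24 of him-3 with prkl-1 and 23 of spo-11 with enpl-1.

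Each time point was sampled in a single library. Errors below are therefore the scatter of libraries around a fitted curve, or the SD over libraries of successive hours, and p-values measure only that scatter. Libraries held 18512549 to 43984242 counts in the continuous N2 course. The dauer exit libraries had 18521397 to 23904100 counts, and those of glp-4 had 23978316 to 36817376. The summed level of 14 germ cell markers was higher later in each N2 course, going from a mean of 1107 CPM in the first 3 continuous N2 libraries to 3225 CPM in the last 3, and from 1430 to 3982 CPM likewise in dauer exit. In glp-4 it lay between 181 and 302 CPM, with the defining markers pgl-1 at 6.92 ± 1.91 CPM and glh-1 at 44.3 ± 5.46 CPM (mean ± SD, n = 7). Sperm markers summed to 3.13 to 5.00 CPM in glp-4, against a mean of 977 CPM in late continuous N2, and the defining sperm gene msp-40 was at 0 in all 7 glp-4 libraries. Somatic gonad markers were present in glp-4, at 178 to 335 CPM.

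**Figure D1:**
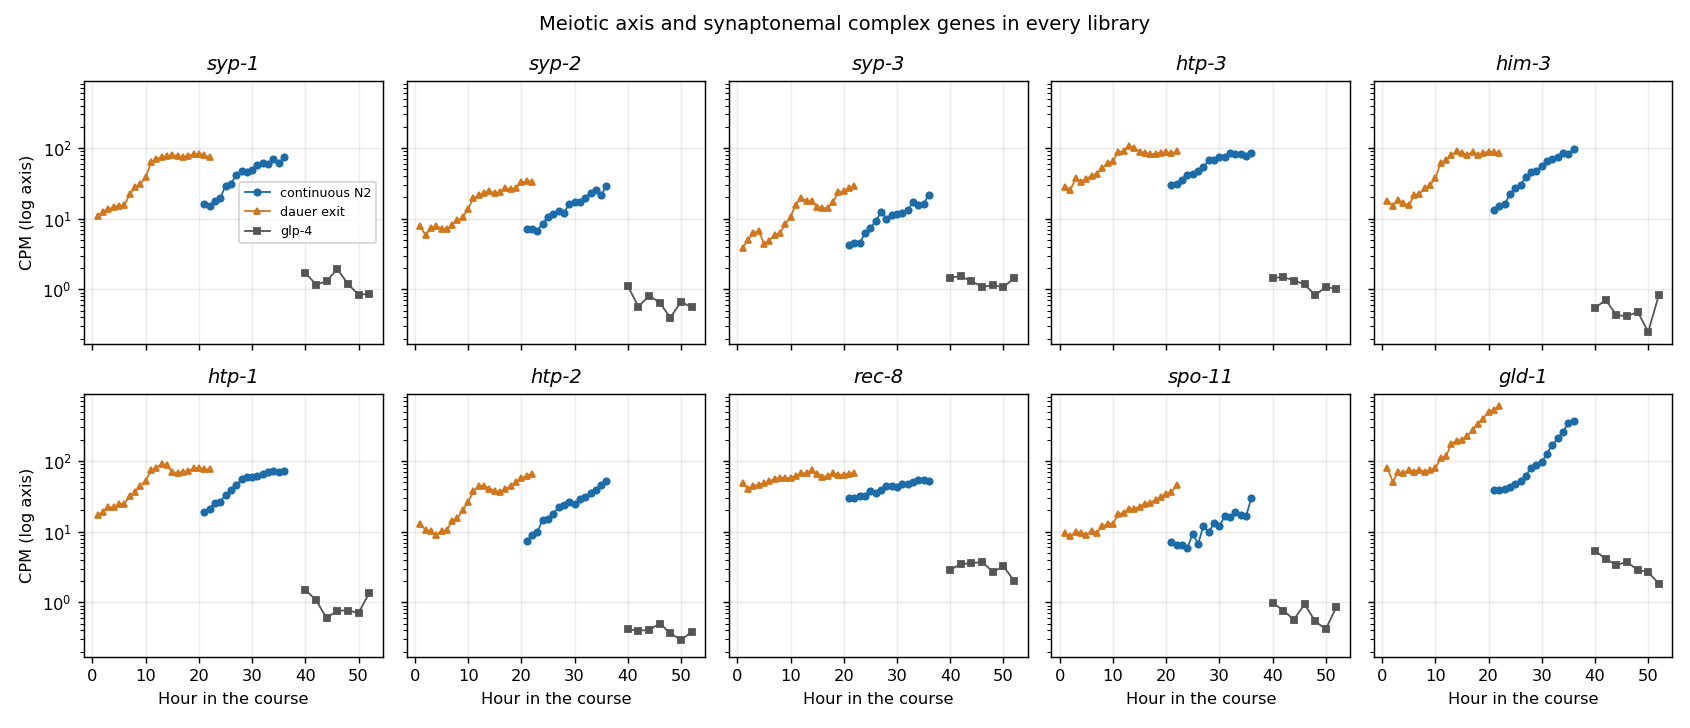
Level of each of the 10 genes in all 45 libraries, in CPM on a log axis, against the hour in its course; blue circles are continuous N2, orange triangles dauer exit and grey squares glp-4, 1 library each. Within the N2 courses the levels climb, and every glp-4 level lies below every N2 level of the same gene.

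In continuous N2, 9 of the 10 genes rose between hours 21 and 36, with fitted changes over 15 h from 3.02-fold for htp-3 to 11.1-fold for gld-1. The exception, rec-8, had a fitted change of 1.80-fold, under the minimum of a log2 change of 1. The slope was fitted with an 8 h wave, the length taken for the larval molting cycle, and a gene was called at an adjusted p under 0.05 (edgeR quasi-likelihood test, Benjamini-Hochberg over all genes) with a log2 change of at least 1. Of all 15622 genes tested, 20.6% were called rising. The median fitted log2 change was 2.00 over the 10 genes and -0.12 over all genes tested. All 10 genes passed the filter on low counts in all comparisons below, in those with glp-4 also through their N2 levels. In bulk RNA, fewer cells of a type and less RNA per cell cannot be told apart, and the germ cell markers moved with these genes, as given above. Their part in the rises was not tested.

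Of the axis proteins, HIM-3, a HORMA-domain protein needed for homologue pairing and crossing over, had the transcript with the steepest climb. him-3 stood at 13.2, 14.9 and 16.0 CPM at hours 21, 22 and 23 and at 84.1, 82.2 and 96.9 CPM at hours 34, 35 and 36. The late libraries were all above the early ones, and the level went up in 14 of 15 hourly steps. The fitted log2 change was 2.86 ± 0.16 (SE; adjusted p = 6.97e-10, edgeR quasi-likelihood test, Benjamini-Hochberg), a doubling every 5.25 h. htp-2 went from 7.44, 9.02 and 9.83 CPM to 38.5, 46.5 and 51.7 CPM over the same hours, a log2 change of 2.36 ± 0.17. Its near copy htp-1, whose protein couples synapsis to correct pairing, went from 19.3, 21.3 and 25.9 CPM to 73.1, 70.2 and 72.8 CPM, a log2 change of 1.93 ± 0.20. htp-1 climbed until about hour 28 and more slowly afterwards, while the highest level of htp-2 was at the last hour.

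HTP-3 is the HORMA-domain protein that recruits the other 3 to the axis. Its gene htp-3 went from 29.7, 31.2 and 35.3 CPM at hours 21 to 23 and reached 82.1, 76.6 and 85.1 CPM at hours 34 to 36, with no overlap. The fitted log2 change was 1.59 ± 0.15. The highest value of the course, 86.0 CPM, came at hour 32. The kleisin gene rec-8, which encodes the ring-closing subunit of a meiotic cohesin, moved least of the 10. Its levels were 30.2, 30.4 and 31.8 CPM at the start and 54.2, 54.3 and 52.0 CPM at the end, a log2 change of 0.84 ± 0.08 (adjusted p = 4.59e-07, same test). The early and late libraries did not overlap, although the change was under the size asked for.

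The 3 central region genes moved by similar fitted amounts. syp-1 went from 15.9, 15.1 and 17.8 CPM at hours 21 to 23 and reached 69.0, 61.0 and 75.6 CPM at hours 34 to 36, a log2 change of 2.26 ± 0.20. syp-2 went from 7.11, 7.14 and 6.79 CPM to 25.1, 21.5 and 29.0 CPM, a log2 change of 2.00 ± 0.12. syp-3 went from 4.18, 4.57 and 4.57 CPM to 15.8, 16.2 and 21.8 CPM, a log2 change of 1.95 ± 0.17. In each the late libraries lay above the early ones, and the SEs of the 3 changes overlap. The differences among the 3 were not tested.

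spo-11, the gene of the enzyme that cuts DNA to start recombination, was among the lowest in CPM and the most uneven from hour to hour. It stood at 7.21, 6.45 and 6.42 CPM at hours 21 to 23 and at 17.0, 16.6 and 29.7 CPM at hours 34 to 36. The last library was well above both others, and the level went up in 6 of 15 hourly steps, but the fitted log2 change of 2.00 ± 0.19 passed the test (adjusted p = 2.36e-07, edgeR quasi-likelihood test, Benjamini-Hochberg). gld-1 encodes an RNA-binding translational repressor that promotes entry into meiosis and progress through oocyte meiosis. It held at 39.5, 39.0 and 40.0 CPM at hours 21 to 23 and reached 261, 348 and 372 CPM at hours 34 to 36, a log2 change of 3.47 ± 0.23, or a doubling every 4.32 h.

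The genes did not climb at the same hours. For each gene in continuous N2, the hour was taken from which its level stayed past the middle of its early and late levels on the log2 scale. A level could pass the middle sooner and drop back. This hour was 26 for syp-3, 27 for syp-1, him-3, htp-1, htp-2 and htp-3, 28 for rec-8, 29 for syp-2 and spo-11, and 31 for gld-1. None of the 10 followed the 8 h wave. Across all genes 26.3% were called oscillating, with an adjusted p under 0.05 and an amplitude of at least 0.5 in log2 from mean to peak. The 10 amplitudes lay between 0.05 and 0.21, with a median of 0.08 against 0.27 over all genes. At an unadjusted p under 0.05 by the edgeR quasi-likelihood test, 1 of the 10, syp-3, would pass, and DESeq2 and limma voom each called 0.

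To set genes side by side, levels were divided by exon length. At hours 34 to 36 of continuous N2 gld-1 was highest, at 147 ± 26.3 CPM per kb of exon (mean ± SD, n = 3). him-3 followed at 75.1 ± 6.85 and htp-1 at 58.6 ± 1.29 CPM per kb. These did not overlap with each other or with the next. htp-2 at 36.8 ± 5.36 and htp-3 at 34.7 ± 1.83 CPM per kb overlapped. Below them syp-2, syp-1, rec-8, syp-3 and spo-11 ran from 23.1 down to 14.7 CPM per kb, and each overlapped the next. The central region genes had levels per length within their spread of each other, at 23.1 ± 3.45 for syp-2, 22.5 ± 2.40 for syp-1 and 19.2 ± 3.60 CPM per kb for syp-3. The cohesin gene rec-8, at 21.7 ± 0.51 CPM per kb, lay between syp-1 and syp-3, so this closeness was not particular to them.

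In the first hours after dauer larvae were fed, all 10 transcripts were already present. At hours 1 to 3 the 10 genes together made up 224 ± 25.9 CPM, against 182 ± 10.8 CPM at hours 21 to 23 of continuous N2 (mean ± SD, n = 3 each). gld-1 stood at 79.5, 50.6 and 70.3 CPM at hours 1, 2 and 3, rec-8 at 49.2, 40.5 and 44.6 CPM, and htp-3 at 28.1, 25.5 and 37.5 CPM. syp-3 was the lowest, at 3.82, 5.01 and 6.22 CPM, followed by syp-2 at 7.77, 5.82 and 7.42 CPM. gld-1 and rec-8 were thus the highest in CPM at the start, and syp-3 and syp-2 the lowest, with syp-1 at 12.4 ± 1.36 CPM above spo-11 at 9.33 ± 0.62 CPM.

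The early dauer exit libraries were compared directly with the earliest continuous N2 libraries, in which 13.8% of 13863 genes were higher and 16.7% lower in dauer exit by the same rule. None of the 10 genes was called. The fitted log2 differences, dauer exit minus continuous, ran from -0.71 ± 0.16 for syp-1 (adjusted p = 0.0148, edgeR quasi-likelihood test, Benjamini-Hochberg, but under the size asked for) to 0.44 ± 0.18 for gld-1 (adjusted p = 0.0841). At an unadjusted p under 0.05, 3 genes would pass (syp-1, htp-1 and gld-1), and DESeq2 and limma voom each called 0. This comparison leans on the scaling. With library size alone the median of all genes moved from 0.02 to 0.33, and 2859 genes were higher and 1840 lower, against 1916 and 2313 with TMM factors. CPM values carry that shift. With library size alone syp-1 no longer passed the adjusted p (-0.39 ± 0.15, adjusted p = 0.0682 by the edgeR quasi-likelihood test). Instead gld-1 (0.76 ± 0.18, 0.0138), rec-8 (0.54 ± 0.12, 0.0108) and spo-11 (0.48 ± 0.15, 0.0339) passed it, all higher in dauer exit and all under the size asked for. The differences of him-3 and syp-3 turned from -0.10 and -0.14 to 0.22 and 0.18.

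Over the first 10 hours of dauer exit, 7 of the 10 genes rose, against 17.8% of 13959 genes tested. The largest fitted change over 9 h was that of syp-1, at 4.22-fold (log2 2.08 ± 0.17), from 10.9, 12.6 and 13.6 CPM at hours 1 to 3 to 27.8, 31.2 and 38.5 CPM at hours 8 to 10. htp-1 followed at 3.61-fold, htp-3 at 2.97-fold, him-3 at 2.71-fold, htp-2 at 2.67-fold, syp-3 at 2.44-fold and syp-2 at 2.20-fold. The 3 that were not called had fitted log2 changes of 0.82 ± 0.13 (spo-11), 0.75 ± 0.12 (rec-8) and 0.51 ± 0.17 (gld-1), with adjusted p-values of 0.000582, 0.000441 and 0.0285 by the edgeR quasi-likelihood test (Benjamini-Hochberg). gld-1 stayed between 50.6 and 80.3 CPM through all 10 hours, and the ranges of hours 1 to 3 and 8 to 10 overlapped. With library size alone in place of TMM, syp-2 (0.84) and syp-3 (0.98) fell below the size asked for, gld-1 had a change of 0.21 (adjusted p = 0.319), and 1889 genes rose and 3722 fell against 2486 and 3015.

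Between hours 10 and 11 all 10 genes stepped up at once. All 10 also rose from hour 9 to 10, 11 to 12 and 19 to 20, by smaller median steps of 1.21-fold, 1.10-fold and 1.02-fold. From hour 10 to 11 the median step over the 10 was 1.40-fold, from 1.05-fold for rec-8 to 1.64-fold for syp-1, while the median over 14072 genes was 1.10-fold. him-3 went from 37.7 to 61.7 CPM and syp-1 from 38.5 to 62.9 CPM between hours 10 and 11. These are also the 2 neighbouring libraries with the lowest correlation of the course (r = 0.957 across genes), and whether the step belongs to the worms or to the libraries was not tested. For 7 of the 10 genes it was the largest hourly step in the course; for htp-3 and rec-8 that was hours 2 to 3, and for gld-1 hours 12 to 13.

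After hour 11 the genes parted. Only gld-1 and spo-11 were called rising over hours 11 to 22, a share near the 19.9% of all 15360 genes tested. gld-1 went from 110 CPM at hour 11 to 503, 532 and 603 CPM at hours 20, 21 and 22, a fitted log2 change over 11 h of 2.61 ± 0.13 and a doubling every 4.21 h. spo-11 went from 17.6 CPM to 34.2, 36.4 and 45.5 CPM, a log2 change of 1.37 ± 0.08. syp-3 (0.89 ± 0.09), syp-2 (0.86 ± 0.09) and htp-2 (0.82 ± 0.07) had smaller log2 changes that did not reach the size asked for. htp-1, htp-3 and rec-8 had log2 changes between -0.06 and 0.10, with adjusted p-values of 0.829, 0.552 and 0.315 by the same test. htp-1 peaked at 91.3 CPM at hour 13, htp-3 at 107 CPM at hour 13 and rec-8 at 74.4 CPM at hour 14. At hours 20 to 22 htp-1 was at 79.6, 77.0 and 76.2 CPM and htp-3 at 87.2, 84.8 and 89.5 CPM, both below their levels at hours 12 to 14 with no overlap. The counts depend on where the stretch begins: over hours 9 to 22, which take in the step, 6 genes were called rising.

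Over the whole of dauer exit, from hour 1 to hour 22, 9 of the 10 genes rose, against 29.9% of 15977 genes that rose and 24.7% that fell. The fitted log2 changes ran from 1.77 ± 0.14 for htp-3 to 3.28 ± 0.16 for gld-1. rec-8 again was the exception, at 0.74 ± 0.10. The order of the hours from which levels stayed past the middle, taken as in continuous N2, was rec-8 at hour 7, htp-3 at hour 8, syp-1 and htp-1 at hour 9, htp-2 at hour 10, syp-2, syp-3 and him-3 at hour 11, spo-11 at hour 13 and gld-1 at hour 14. In both N2 courses spo-11 and gld-1 were thus among the last by this measure, and the courses share no libraries.

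**Figure D2:**
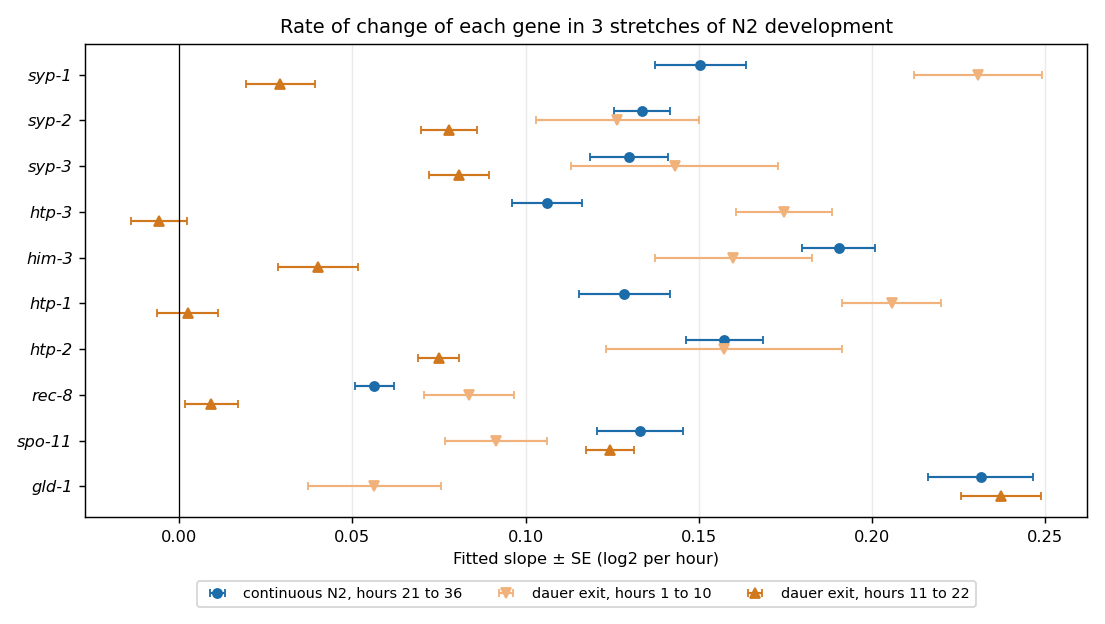
Fitted slope of each gene in log2 per hour, with SE, for continuous N2 (hours 21 to 36, blue), the first 10 hours of dauer exit (light orange) and its hours 11 to 22 (dark orange); the vertical line marks no change. For gld-1 and spo-11 the late dauer exit slope lies near the continuous one, and for the other 8 it lies below.

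The slope over hours 11 to 22 of dauer exit was compared with that of continuous N2 in a joint fit. It was lower in dauer exit for 8 of the 10 genes, against 5.22% of 15824 genes tested; the slope was steeper in dauer exit for 4.99%. The difference in log2 per hour was largest for him-3 (-0.16 ± 0.02, adjusted p = 1.38e-05 by the edgeR quasi-likelihood test (Benjamini-Hochberg)), followed by htp-1 (-0.13 ± 0.02) and syp-1 (-0.13 ± 0.02). For spo-11 it was -0.015 ± 0.017 (adjusted p = 0.623) and for gld-1 -0.0010 ± 0.022 (adjusted p = 0.986). This result rests on the stretch chosen. When all 22 hours of dauer exit were set against continuous N2, a choice made after seeing the data, 0 of the 10 genes differed at an adjusted p under 0.05, and the difference turned positive for syp-1, syp-2 and syp-3.

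At the end of the N2 courses most levels in CPM were higher in dauer exit, but no difference passed the test. At hours 20 to 22 of dauer exit the 10 genes summed to 1104 ± 60.9 CPM, and at hours 34 to 36 of continuous N2 to 799.9 ± 83.8 CPM. In CPM 9 of the 10 were higher in dauer exit, 7 of them without overlap of the 3 libraries a side. The same shares were not counted over all genes, so whether these counts are unusual cannot be said. They also rest on the scaling. In the fit with TMM factors htp-1 and htp-3 were lower in dauer exit, and with library size alone they were higher (log2 differences 0.11 and 0.10). With TMM-scaled library sizes him-3 was at 85.7 CPM in late dauer exit and 97.4 CPM in late continuous N2. gld-1 was at 546 ± 51.6 against 327 ± 58.4 CPM (1.67-fold), spo-11 was 1.84-fold higher and syp-3 1.503-fold. Of 14958 genes tested, 0% were higher and 0.00669% lower in dauer exit, so this comparison called almost nothing among all genes, and none of the 10. At an unadjusted p under 0.05 by the edgeR quasi-likelihood test, 3 of the 10 would pass, all higher in dauer exit: spo-11 (log2 difference 0.75 ± 0.24), gld-1 (0.60 ± 0.18) and syp-3 (0.45 ± 0.15). DESeq2, which called 223 genes higher and 150 lower among all genes, called 0 of the 10, as did limma voom. him-3 was at 87.1 ± 1.15 CPM in dauer exit and 87.7 ± 8.01 CPM in continuous N2, and syp-1 at 78.4 ± 4.27 and 68.6 ± 7.31 CPM.

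**Figure D3:**
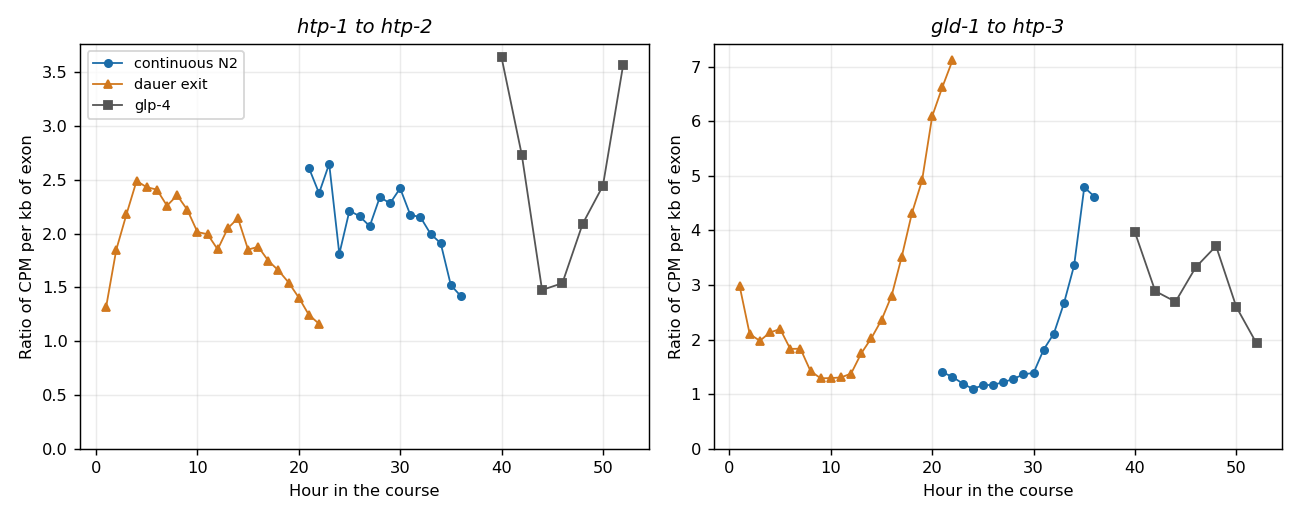
Ratio of htp-1 to htp-2 (left) and of gld-1 to htp-3 (right), each from CPM per kb of exon, in every library against the hour in its course. In both N2 courses the first ratio falls and the second climbs in the last hours.

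The balance between members shifted along both N2 courses. The ratio of htp-1 to htp-2 per exon length was 2.55 ± 0.15 at hours 21 to 23 of continuous N2 and 1.62 ± 0.26 at hours 34 to 36, without overlap. In dauer exit it was 1.78 ± 0.43 at hours 1 to 3, 2.20 ± 0.17 at hours 8 to 10, 2.02 ± 0.15 at hours 12 to 14 and 1.27 ± 0.12 at hours 20 to 22. Hours 12 to 14 and 20 to 22 did not overlap, but hours 1 to 3 and 20 to 22 did. The ratio of gld-1 to htp-3 went from 1.305 ± 0.104 to 4.25 ± 0.78 in continuous N2. In dauer exit it was 2.35 ± 0.55 at hours 1 to 3, 1.34 ± 0.07 at hours 8 to 10 and 6.61 ± 0.51 at hours 20 to 22. The ratio of syp-1 to syp-2 was 0.83 ± 0.09 early and 0.98 ± 0.04 late in continuous N2. In dauer exit it went from 0.64 ± 0.14 at hours 1 to 3 to 1.14 ± 0.04 at hours 12 to 14, without overlap, and was 0.84 ± 0.05 at hours 20 to 22. No test was run on these ratios, and the first rests on how reads of the near-identical pair were assigned.

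In glp-4 all 10 genes were at low levels. Together they made up 13.6 ± 2.47 CPM (mean ± SD, n = 7; range 11.2 to 17.5), compared with 182 CPM in the earliest and 799.9 CPM in the latest continuous N2 window. Every gene had counts in every glp-4 library, the fewest being 6 counts of him-3 at hour 50. Against hours 34 to 36 of continuous N2 all 10 were lower, while 21.6% of 15839 genes tested were lower and 14.9% higher. The fitted log2 differences ran from -3.79 ± 0.15 for syp-3 to -7.37 ± 0.27 for him-3, with a median of -5.90 against 0.09 over all genes, and the largest adjusted p of the 10 was 6.57e-08 (edgeR quasi-likelihood test, Benjamini-Hochberg). Strain, hour and collection cannot be told apart here.

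him-3 and htp-2 were furthest below N2. him-3 ranged from 0.250 to 0.834 CPM with a median of 0.482 CPM in glp-4, which was 165-fold below late N2. htp-2 ranged from 0.292 to 0.501 CPM (median 0.397; 114-fold lower), htp-1 from 0.598 to 1.5001 CPM (median 0.766; 74.4-fold) and htp-3 from 0.822 to 1.504 CPM (median 1.18; 67.6-fold). gld-1 ranged from 1.84 to 5.39 CPM (median 3.40) and was 95.7-fold lower. All glp-4 libraries lay below all N2 libraries of these genes.

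The remaining genes kept a somewhat higher share. syp-1 ranged from 0.834 to 1.95 CPM (median 1.19; 52.6-fold lower), syp-2 from 0.397 to 1.12 CPM (median 0.649; 36.7-fold) and spo-11 from 0.417 to 0.989 CPM (median 0.766; 28.6-fold). rec-8 ranged from 2.02 to 3.77 CPM (median 3.25; 17.2-fold) and syp-3 from 1.08 to 1.53 CPM (median 1.304; 13.8-fold). Per exon length gld-1, syp-3 and rec-8 were the highest in glp-4, at 1.55 ± 0.51, 1.38 ± 0.20 and 1.26 ± 0.25 CPM per kb, and overlapped. syp-3, second to lowest in late continuous N2 by this measure, was thus second highest in glp-4.

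Compared with the earliest continuous N2 libraries, hours 21 to 23, all 10 genes were again lower in glp-4, against 12% of 14342 genes. The log2 differences ran from -1.68 ± 0.15 for syp-3 to -4.70 ± 0.27 for him-3, with a median of -3.49. Both glp-4 comparisons use the same glp-4 libraries. Within the glp-4 course, where 5.17% of 14407 genes rose and 1.53% fell, none of the 10 was called. The largest fitted change over 12 h was that of gld-1, whose level was 5.39, 4.12, 3.40, 3.71, 2.89, 2.67 and 1.84 CPM from hour 40 to hour 52. Its log2 change was -1.05 ± 0.28 (adjusted p = 0.0908, edgeR quasi-likelihood test, Benjamini-Hochberg). At an unadjusted p under 0.05 only gld-1 would pass; DESeq2 called 1, again gld-1, and limma voom 0. With no wave term gld-1 was called falling, at -1.16, both with all 7 libraries and without the library of hour 46. When any other single library was left out it was not called.

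**Figure D4:**
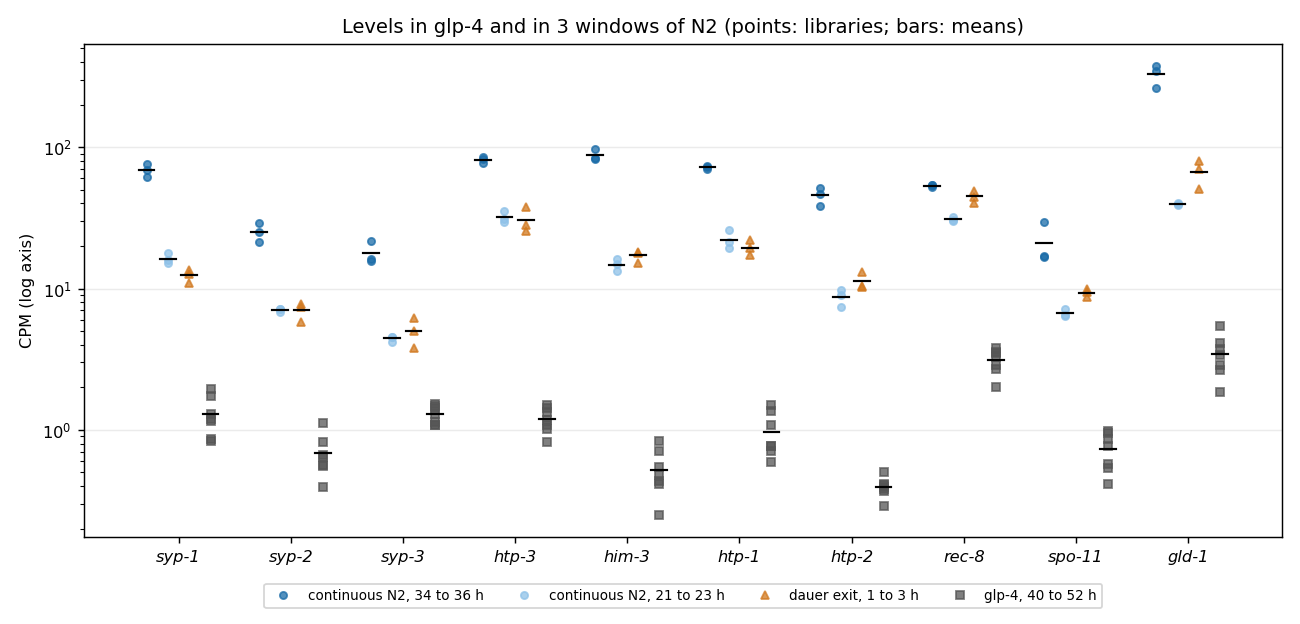
Level of each gene in CPM on a log axis in continuous N2 at hours 34 to 36 (dark blue) and 21 to 23 (light blue), in dauer exit at hours 1 to 3 (orange) and in all 7 glp-4 libraries (grey); points are libraries and bars means. The glp-4 points lie below all N2 points in every gene, with the smallest gap for syp-3.

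The other genes of the pathway were counted from lists of 60 tested genes. In continuous N2 28 of the 60 rose and 2 fell, against 20.6% and 15.3% of all genes. In dauer exit 39 rose and 3 fell, against 29.9% and 24.7%. In glp-4, 54 of 59 were lower than in late continuous N2, against 21.6% of all genes. The median log2 changes were 0.89, 1.31 and -2.97, beside -0.12, 0.12 and 0.09 over all genes. These shares over all genes apply to each list below. None of the 60 lies on the X chromosome, which holds 14% of the genes tested in continuous N2.

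Of 12 other axis, cohesin and synaptonemal complex genes 7 rose in continuous N2, 8 rose in dauer exit and 10 were lower in glp-4. lab-1, whose protein protects sister chromatid cohesion, had the largest change of all these lists. It went from 0.542 ± 0.189 to 20.6 ± 7.33 CPM in continuous N2 (mean ± SD, n = 3; log2 change 6.27 ± 0.48). syp-4, a further central region gene, went from 22.1 ± 2.08 to 82.3 ± 11.3 CPM and stood at 0.933 ± 0.279 CPM in glp-4. The cohesin subunits smc-3 and scc-3, which also serve mitosis, were at 66.2 ± 6.18 and 77.1 ± 9.52 CPM early and at 58.8 ± 9.36 and 69.2 ± 5.29 CPM late in continuous N2.

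Of 10 genes for pairing centres and attachment to the nuclear envelope 8 rose in continuous N2, 9 rose in dauer exit and all 10 were lower in glp-4. sun-1, which encodes an inner nuclear envelope protein that links chromosomes to the cytoskeleton, had a log2 change of 2.21 ± 0.08 in continuous N2 and 1.99 ± 0.12 in dauer exit. The polo kinase gene plk-2 changed by 1.75 ± 0.16 in continuous N2 and the zinc finger gene zim-2 by 2.23 ± 0.24 in dauer exit. In glp-4 the largest differences of the list were those of zim-3 (-5.89 ± 0.24) and zim-1 (-5.78 ± 0.19).

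Of 7 double strand break genes 3 rose in continuous N2 (20.6% of all genes), 6 rose in dauer exit (29.9%) and 6 were lower in glp-4 (21.6%). dsb-1, which promotes break formation, led all 3, with log2 changes of 2.51 ± 0.11, 2.64 ± 0.13 and -7.18 ± 0.35. The second largest were dsb-3 in continuous N2 (1.297 ± 0.173), com-1 in dauer exit (1.85 ± 0.13) and xnd-1 in glp-4 (-5.86 ± 0.21). Of 19 recombination and crossover genes 8 rose in continuous N2, 13 rose in dauer exit and 18 were lower in glp-4. The RING-domain genes zhp-2 and zhp-1, which act in crossover control, led in all 3. Their log2 changes were 2.14 ± 0.15 and 1.84 ± 0.20 in continuous N2, and both were at -5.56 in glp-4 with SEs of 0.26 and 0.27.

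A list of 12 genes was drawn up for the decision between mitosis and meiosis, and some of its genes act in sexual fate instead. Of these 12, 2 rose and 2 fell in continuous N2, near the 20.6% and 15.3% of all genes. In dauer exit 3 rose and 3 fell, near the 29.9% and 24.7% of all genes. In glp-4 10 of 11 were lower, against 21.6%. gld-3, which acts with the poly(A) polymerase GLD-2, rose by 2.01 ± 0.09 in continuous N2 and by 2.30 ± 0.22 in dauer exit on the log2 scale. fog-2, whose protein works with GLD-1 in hermaphrodites, rose by 1.64 ± 0.19 in dauer exit. Those that fell act in sexual fate. fog-1 and fog-3 specify sperm and her-1 specifies male development. fog-1 fell in continuous N2, from 24.0 ± 2.40 CPM in the first 3 libraries to 8.55 ± 1.10 CPM in the last 3, a log2 ratio of -1.49. The straight line fitted to all 16 hours gave a steeper change of -2.54 ± 0.38. In dauer exit fog-1 fell by 1.28 ± 0.39 from hour 1 to hour 22. At hours 1 to 3, 8 to 10, 12 to 14 and 20 to 22 of dauer exit, fog-3 was at 9.85 ± 1.77, 20.8 ± 4.5, 40.1 ± 2.96 and 4.99 ± 0.84 CPM, so its fitted change of -1.36 ± 0.32 from hour 1 to hour 22 leaves out a higher level in between. fog-1 likewise stood at 30.3 ± 5.69, 38.8 ± 6.03, 37.4 ± 8.49 and 12.0 ± 1.496 CPM in those 4 windows. her-1 fell in both, but was at 0.654 ± 0.139 CPM even at its higher level in continuous N2.

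**Figure D5:**
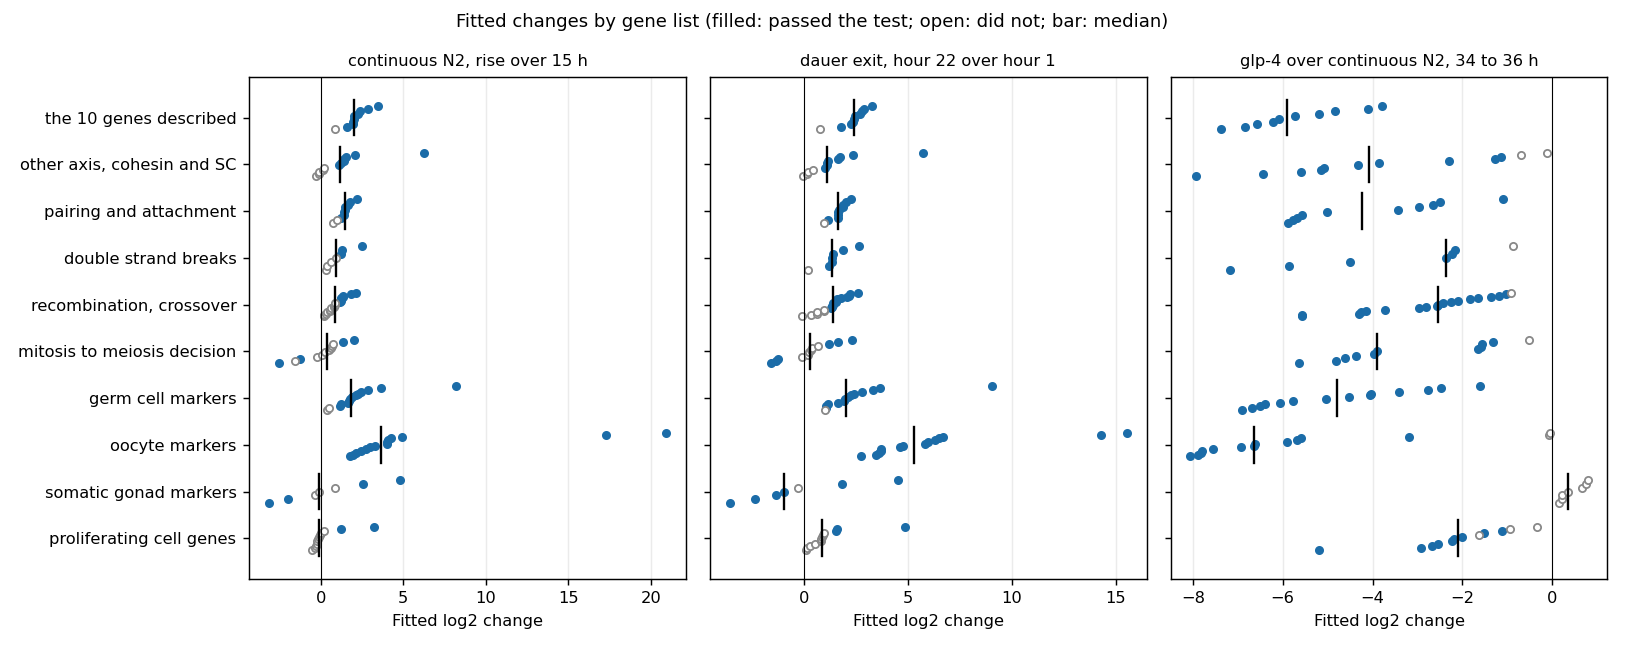
Fitted log2 changes of the 10 genes and of the genes of each list in continuous N2 (left), dauer exit (middle) and glp-4 against late continuous N2 (right); filled points passed the test, open points did not, bars are medians and sperm markers are not drawn. The 10 genes have a median of 2.00 on the left and -5.90 on the right.

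Markers of germ cells and other cells were counted against the same shares, 20.6% rising and 15.3% falling in continuous N2, 29.9% rising in dauer exit and 21.6% lower in glp-4. Of 14 germ cell markers 12 rose in continuous N2, 13 rose in dauer exit and 14 were lower in glp-4. All 14 oocyte markers and all 14 sperm markers tested rose in both N2 courses. Of 7 somatic gonad markers tested 2 rose and 2 fell in continuous N2, and none was called against late N2 in glp-4, where their median log2 difference was 0.36. Among 12 genes of proliferating cells 2 rose in continuous N2, a share near that of all genes, and 9 were lower in glp-4. In glp-4 12 of 14 oocyte markers were lower than in late N2. The remaining pair, perm-2 and perm-4, which encode eggshell proteins, were at 139 ± 213 and 260.4 ± 358 CPM there (mean ± SD, n = 7), against 146 ± 78.4 and 273 ± 124 CPM in late continuous N2 (n = 3). These glp-4 means do not describe a steady level. The summed oocyte markers ranged from 21.4 to 1553 CPM over the glp-4 libraries. Within that course 2 of the 14 were called rising, against 5.17% of all genes.

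The genes most like the average of the 10 were picked by their correlation over the 38 N2 libraries, with levels as log2(CPM + 1) centred within each course. They were dsb-1 (r = 0.991), syp-4 (0.990), nduf-2.2 (0.989), Y54G11A.3 (0.988) and pgl-3 (0.987), of which dsb-1 and syp-4 are in the lists above and pgl-3 is a germ cell marker. Of the 10 genes themselves syp-2 (0.991) and him-3 (0.990) lay closest to the average they are part of, and rec-8 (0.923) and gld-1 (0.923) furthest. Libraries of successive hours share a time trend, so these values describe and do not test.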

How the data were processed

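The raw counts per gene were deposited by the authors as whole numbers for 20182 gene rows and 45 libraries. The aligner, counting tool and build were not given in the sources used here. Per the labels' protocols, the library kit keeps strand. The authors' normalized table was not used. Symbols came from a names table, matched for 18778 identifiers (93%), and exon lengths and coordinates from the WBcel235 annotation.

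The 10 genes and all lists were chosen with earlier results of these data known. The test was edgeR 4.0.16 under R 4.3.3, with filterByExpr, TMM factors, the quasi-likelihood F-test, and Benjamini-Hochberg adjustment over all genes tested. A call needs an adjusted p under 0.05 and a log2 change of at least 1; the slope difference needs the adjusted p alone, and the wave an amplitude of at least 0.5. Trends took a linear term in the hour with the cosine and sine of 8 h, except the first 10 hours of dauer exit, which had no wave. The whole dauer exit took a spline with 3 degrees of freedom, its test being over the whole curve and its change from hour 1 to hour 22. Windows of 3 neighbouring hours stood in for replicates. Nothing says that libraries came from separate cultures, so p-values cover only the spread between these libraries, which may be technical. CPM divides by the library total, so it is relative to all other RNA of the worm. Alternatives were RLE or library-size scaling, no filter, DESeq2 1.42.0, limma 3.58.1, a 9 h wave or none, a spline with 5 degrees of freedom, other hours, and leaving out libraries. Fits were checked on simulated data.

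Named pathway genes are the 2 with the largest called change of each list and comparison, plus genes that moved against their list. smc-3, scc-3, perm-2 and perm-4 were chosen after their values were seen. The symbols smc-1, dsb-2, him-5, rec-1, rad-54 and msh-4 matched no row, and ssp-9 matched 2 rows and was left out. No sequences are shown.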

Additional observations from a re-analysis of the deposited data

Results flagged for a closer look

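For 8 genes the slope per hour of dauer exit (hours 11 to 22) minus that of continuous N2 passed a test of the difference itself (edgeR's quasi-likelihood F-test, Benjamini-Hochberg over all genes). This holds for the stretch of dauer exit chosen, not for the courses as wholes. In log2 per hour the difference was -0.129 for syp-1, -0.0627 for syp-2, -0.0561 for syp-3, -0.158 for him-3, -0.134 for htp-1, -0.0896 for htp-2, -0.119 for htp-3 and -0.0542 for rec-8. For gld-1 and spo-11 the same test was not passed. As given with these slopes, none of the 8 passed it when all hours of dauer exit were used. No glp-4 library stood apart from the other 6 in any of the 10 genes by Dixon's limit of 0.568.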

How the results depend on the processing

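Of 224 alternatives for counts of the 10 genes, 218 kept the count within 1.5 times, and of 1150 alternatives for single values, 1105 kept their direction and side of the threshold, 11 lost the call, 7 gained it and 27 changed sign, of which 3 were called values. The rising genes of early dauer exit went from 7 to 3 over hours 1 to 8, a shorter span, and those of late dauer exit from 2 to 6 over hours 9 to 22. The slope difference went from 8 genes to 0 with dauer exit hours 1 to 22 (chosen after seeing the data), where it reversed for syp-1 (0.017), syp-2 (0.0029) and syp-3 (0.0077). In the glp-4 course, which leaves few degrees of freedom, 1 gene fell, gld-1, with DESeq2 (-1.04) or with no wave term (-1.16). When each library was left out 0 to 1 fell. The fits that left out a glp-4 library also had no wave term, so they differ from the main fit in both respects. The 24 other sign changes were of values that passed no test on either side. In the late dauer exit trend these were htp-1 (-0.091) and rec-8 (-0.016) with library size alone, htp-3 (0.19) over hours 9 to 22 and htp-1 (-0.062) without hour 11. For the slope difference it was gld-1 with RLE (0.0062) and DESeq2 (0.0060). In the glp-4 course it was him-3 with no wave term (0.13). With no wave term and a library left out, it was him-3 (-0.91 to 0.45, positive in 6 of 7), htp-1 (-0.99 to 0.46), htp-2 (-0.28 to 0.015) and rec-8 (-0.73 to 0.19). For early dauer exit against early N2 it was syp-3 (0.18) and him-3 (0.22) with library size alone, htp-2 with 4 h windows (-0.28), and, over leaving out each library, syp-3 (-0.33 to 0.026) and htp-2 (-0.13 to 0.16). For late dauer exit against late N2 it was htp-1 (0.11) and htp-3 (0.10) with library size alone. The cause was not tested except where the span is named. Of 50 mean levels, 17 moved by more than their SD under TMM-scaled library sizes.

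Over all genes, steeper slopes in dauer exit numbered 790, against 497 with library size alone (1229 less steep, against 826), 1076 with RLE (646 less steep) and 1460 with DESeq2. Rising and falling genes in glp-4 numbered 745 and 220, against 635 and 404 with library size alone, 1667 and 687 with DESeq2, and 499 falling with no wave term. With no wave term and a library left out, they numbered 341 to 1180 and 71 to 753. Genes higher in glp-4 than in early N2 numbered 1891, against 1245 without hour 22. Late dauer exit differed from late continuous N2 in 0 genes higher and 1 lower, against 41 and 100 with 4 h windows, and 0 lower without hour 21 or 22 of dauer exit or hour 35 of continuous N2. With library size alone the median of all genes in the early dauer exit trend moved from 0.05 to -0.25. No paired analysis was possible because each time point has 1 library and the labels carry no replicate numbers. The depth left 6 to 131 counts per glp-4 library for the 10 genes other than gld-1, which limits precision there.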
